A study of Mus musculus with 12 samples.

Results

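The genes described here encode the proteins of the cytosolic ribosome. They were chosen by name, as symbols of the Rpl and Rps series with Rplp0 to Rplp2 and Rpsa, and pseudogenes and the ribosomal protein kinases were left out. The deposited table held 68 of them among 24570 named genes, 42 of the large subunit and 26 of the small subunit. By the same naming rule, RefSeq lists 85 names that it does not annotate as pseudogenes, and the other 17, among them Rps6, Rpl11, Rpl13a and Rplp2, were not analysed here.

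Whole retinas of 6 streptozotocin-diabetic mice were compared with those of 6 normoglycaemic mice to follow early gene expression in the diabetic retina, with 1 array per animal. The diabetic animals were male C57Bl6/J mice injected into the peritoneum with 160 mg/kg of streptozotocin, which kills pancreatic beta cells, at 8 weeks of age and a weight of 24 to 26 g. Their blood glucose exceeded 15 mM on day 7. The control animals were C57Bl6/J mice without streptozotocin, and the labels do not state a vehicle injection. All animals were kept at 12 hours of light and 12 hours of dark. The sample descriptions place the diabetic animals 6 weeks after induction, whereas the design text of the series speaks of animals 6 weeks old, so the age at death is not settled. Streptozotocin reaches other tissues than the pancreas, and the comparison does not part the drug from the high glucose. The titles call the animals biological replicates.

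The values are log2 RMA values, an intensity scale in which all 12 arrays had been given the same distribution, spanning 5.07 to 14.10 around a median of 5.73. All 16 retinal marker genes examined were measured, and the mean of each lay above that median, from 6.64 to 14.08. Arrays correlated with each other at 0.993 to 0.998 over all genes. Crystallins of the lens, measured by 12 genes of which 5 lay below the array median, averaged 5.93 to 7.91 in diabetic retinas and 6.10 to 6.81 in control retinas, with the highest mean in diabetic animal 6. Of those 12 genes, 0 passed the limma test described below. Of the retinal markers, 1 did, the cone gene Arr3 (-0.30, adjusted p = 0.0348), and their mean ran from 10.64 to 10.76 in diabetic and from 10.73 to 10.82 in control retinas. The 9 leukocyte and 5 red blood cell markers measured all lay below the array median, with 1 and 0 past the test, and 0 passed among those of pigment epithelium (10 measured), microglia (7), endothelium (5) and skeletal muscle (5). The part of any of these in the results below was not tested, apart from the crystallin covariate. A whole retina mixes many cell types, so that fewer cells of a type and less RNA per cell cannot be told apart.

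The cytosolic ribosome joins a small subunit, which binds the mRNA and reads its codons, to a large subunit, which forms the peptide bond and lets the new chain out through a tunnel. Nearly every ribosomal protein is present in 1 copy per ribosome, and most of their mRNAs start with a cytosine followed by a run of pyrimidines, the 5′ terminal oligopyrimidine tract, through which the kinase mTOR and the binding protein LARP1 set their translation together. A few of the proteins have a paralog that takes the place of the common form in certain tissues. Several ribosomal protein genes also carry small nucleolar RNAs in their introns, and 22 of the 68 loci overlapped an annotated small nucleolar RNA in RefSeq (GRCm38.p6).

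RefSeq start regions were given for 52 of the 68 genes, of which 10 had more than 1 start. A cytosine at the first transcribed base followed by 4 pyrimidines was found at a start of 9 of these 52 genes (17.3%), against 2.8% of the 18335 tested genes with a start region. It was found in 5 of 32 large subunit genes and in 4 of 20 small subunit genes. Within 5 bases of the annotated start on either side, such a run began in 21 of the 52 genes (40.4%), against 20.1% of all genes. Of the genes named by the rule for the text, Rps15a, Rps27 and Rpl32l have the tract at an annotated start, and the windows below are shown to set these beside the genes whose level differed between the groups. Each window gives 20 bases before the start and the first 10 transcribed bases, 5′ to 3′, from RefSeq on GRCm38.p6, and capitals mark the pyrimidine tract at the start.
Rps15a, chr7:118116138-118116167, minus strand: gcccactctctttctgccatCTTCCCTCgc
Rps27, chr3:90213639-90213668, minus strand: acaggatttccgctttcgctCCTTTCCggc
Rpl32l, chr10:20208419-20208448, plus strand: taataaaataaaatgaccagCTTCTTCCTT
Rpl22l1, chr3:28805488-28805517, plus strand: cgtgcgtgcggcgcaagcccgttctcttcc
Rpl22, chr4:152324416-152324445, plus strand, the first of its annotated starts: atcagcgctgcttctggaatgttccagctc
Rpl39l, chr16:10170208-10170237, plus strand: cctagctcccaggcctttccggatttccgg
Rps28, chr17:33824553-33824582, minus strand: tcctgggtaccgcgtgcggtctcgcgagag
In these windows the first 3 genes begin with a cytosine and an unbroken pyrimidine run, while the other 4 have no such run at the annotated base. In Rpl22l1, however, an unbroken pyrimidine run begins at the base after the annotated start and meets the wider rule. An annotated start can lie some bases from the one used in retina, which these data do not show.

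Upstream of the starts, the motif TATAAA, read on the transcribed strand between 40 and 20 bases before the start, was found in 1 of the 52 genes (1.9%), against 2.7% of all genes with a start region. That gene was Rpl22l1. Its 100 bases before the start (chr3:28805408-28805507, plus strand) are shown with the motif in capitals, and no other motif searched overlapped it there.
Rpl22l1: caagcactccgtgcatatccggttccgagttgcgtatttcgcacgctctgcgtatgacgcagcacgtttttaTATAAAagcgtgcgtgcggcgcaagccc
In the 250 bases before the start, on both strands, the ETS and GABP motif CCGGAAGT, which reads as ACTTCCGG on the other strand, was in 5 of 52 genes (9.6%) against 4.2% of all genes. The YY1 motif AAGATGGC, in reverse GCCATCTT, was in 3 (5.8%) against 1.8%, and the motif CCAAT, or its reverse complement, in 16 (30.8%) against 38.8%.

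Of the 68 ribosomal protein genes, 3 differed between diabetic and control retinas past the limma test at an adjusted p of 0.05, where 3.24% of all genes tested did. The paralog gene Rpl22l1 rose in diabetic retinas, where 1.47% of all genes rose, and Rpl39l and Rps28 fell, where 1.77% of all genes fell. The other 65 did not pass, and the median log2 change over the 68 genes was -0.00016, against -0.0018 over all genes. The median absolute change was 0.046 for the 68 genes and 0.034 for all genes. At an unadjusted p of 0.05, 15 of the 68 passed, 6 higher and 9 lower, where 21.0% of all genes passed. As shares of the 68 genes these counts are 4.41% and 22.1%, close to the background at both thresholds.

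Rpl22l1 encodes the paralog of Rpl22, a protein on the outer surface of the large subunit near the tunnel exit. In mice Rpl22 is known to repress the mRNA of Rpl22l1. Rpl22l1 had log2 values of 5.55 at the lowest, 5.61 at the median and 5.85 at the highest in diabetic retinas, against 5.28, 5.34 and 5.41 in control retinas. The groups did not overlap, and every diabetic retina was above every control. The difference was 0.30 ± 0.04 (SE, n = 6 per group), a 1.23-fold rise by limma, with a 95% interval from 0.21 to 0.40 and an adjusted p of 0.0104. Rpl22 itself had values of 5.99, 6.01 and 6.04 in diabetic retinas, against 5.90, 5.99 and 6.13 in control retinas. The diabetic values of Rpl22 lay inside the control range, and the difference of 0.02 ± 0.03 (adjusted p = 0.753) had a 95% interval from -0.05 to 0.09.

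Rpl39l encodes the paralog of Rpl39, a small protein that lines the exit tunnel, and in mice it is best known from male germ cells. Its values were 6.03, 6.16 and 6.32 in diabetic retinas, against 6.35, 6.43 and 6.59 in control retinas. Again the groups did not overlap, with all diabetic retinas lower. Rpl39l fell by 0.30 ± 0.05 on the log2 scale (95% interval of the change from -0.42 to -0.19, adjusted p = 0.0184).

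Rps28 encodes a small subunit protein near the place where the mRNA leaves the ribosome. Its values were 5.49, 5.54 and 5.66 in diabetic retinas, against 5.66, 5.73 and 5.97 in control retinas. The groups just failed to meet, with 5.658 as the highest diabetic value and 5.663 as the lowest control value. Rps28 fell by 0.21 ± 0.05 (adjusted p = 0.0445). This call was lost without diabetic animal 2 (adjusted p = 0.0561), 3 (0.0871), 4 (0.0825), 5 (0.0769) or 6 (0.0766). It was also lost without control animal 2 (0.0835), 3 (0.0778) or 6 (0.0640). With the crystallin mean as a covariate the change of Rps28 was again -0.21 ± 0.05, and the call was lost (adjusted p = 0.0721). Rpl22l1 and Rpl39l passed without any 1 array, with adjusted p from 0.00543 to 0.0272 and from 0.0111 to 0.0394. With the crystallin mean as a covariate they changed by 0.31 (adjusted p = 0.0215) and by -0.30 (adjusted p = 0.0345).

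These 3 were also the only ones of the 68 genes whose groups did not overlap, while 2.84% of all genes had groups that did not overlap. The means of Rpl22l1 and Rps28 lay below the array median of 5.73, as those of 34 of the 68 genes did. Log2 RMA values near the low end of the scale hold much background, so that the folds of such genes are uncertain. Levels of the 68 genes ran from 5.14 for Rpl10 to 12.08 for Rpl4, with Rplp0 at 5.36. Whether a low value means little RNA or a row that reads its RNA poorly was not tested. Among all genes below the array median, 1.32% passed the test.

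**Figure D1:**
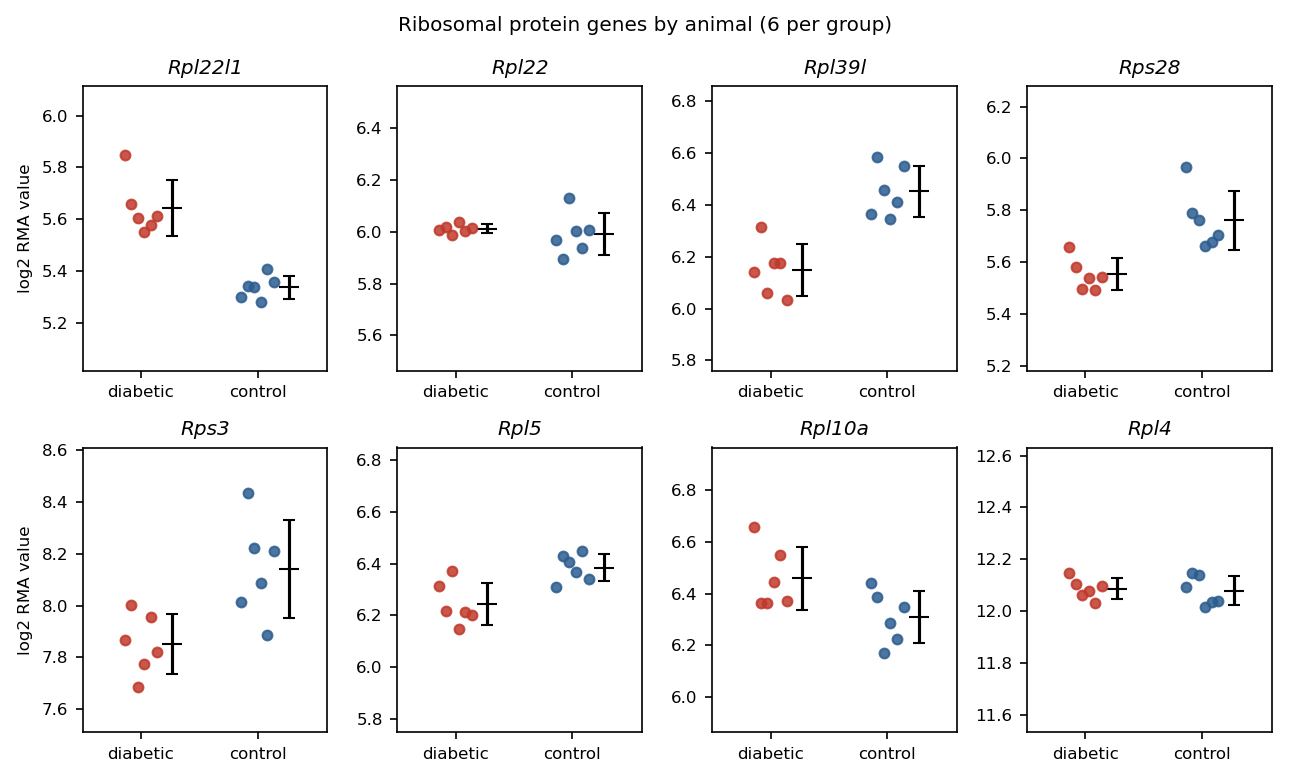
Log2 RMA values of 8 ribosomal protein genes, with a point for each of 6 diabetic (left) and 6 control (right) animals and the mean ± SD beside them. Every panel spans the same height on the log2 axis, and the groups stand apart for Rpl22l1, Rpl39l and Rps28 and overlap for Rpl22, Rps3, Rpl5, Rpl10a and Rpl4.

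The large subunit counted 24 genes with a value above 0 and 18 below, and the small subunit 10 above and 16 below. Of all 24570 genes, 11830 were above 0 and 12740 below. The median log2 change was 0.0084 for the 42 large subunit genes, of which 1 rose and 1 fell past the test (4.76%). It was -0.026 for the 26 small subunit genes, of which 1 fell (3.85%). Both shares were close to the 3.24% of all genes that passed. The mean over the large subunit was -0.011 and differed in sign from its median. In the small subunit the mean was -0.042. Changes ran from -0.30 to 0.30 in the large subunit and from -0.29 to 0.14 in the small subunit.

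The subunits were also followed animal by animal, as the mean deviation of their genes from each gene's mean over 12 arrays. Large subunit genes deviated by -0.043 to 0.031 in diabetic retinas and by -0.021 to 0.021 in control retinas. The diabetic values took in the whole control range, with the lowest in diabetic animal 4 and the highest in diabetic animal 1. Small subunit genes deviated by -0.061 to 0.019 in diabetic retinas and by -0.034 to 0.079 in control retinas. The 2 highest small subunit means were those of control animals 2 and 1, and the groups overlapped. The large minus small difference averaged 0.016 ± 0.034 in diabetic retinas and -0.016 ± 0.031 in control retinas (SD, n = 6 each). The groups differed by 0.031, about the size of either SD, which describes the spread of single animals and not the error of the difference. No p is given for a score over genes chosen with earlier results known. In the upper part of the level range, from the median of all genes upward, 18 large and 16 small subunit genes remained, and the difference turned to -0.022.

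**Figure D2:**
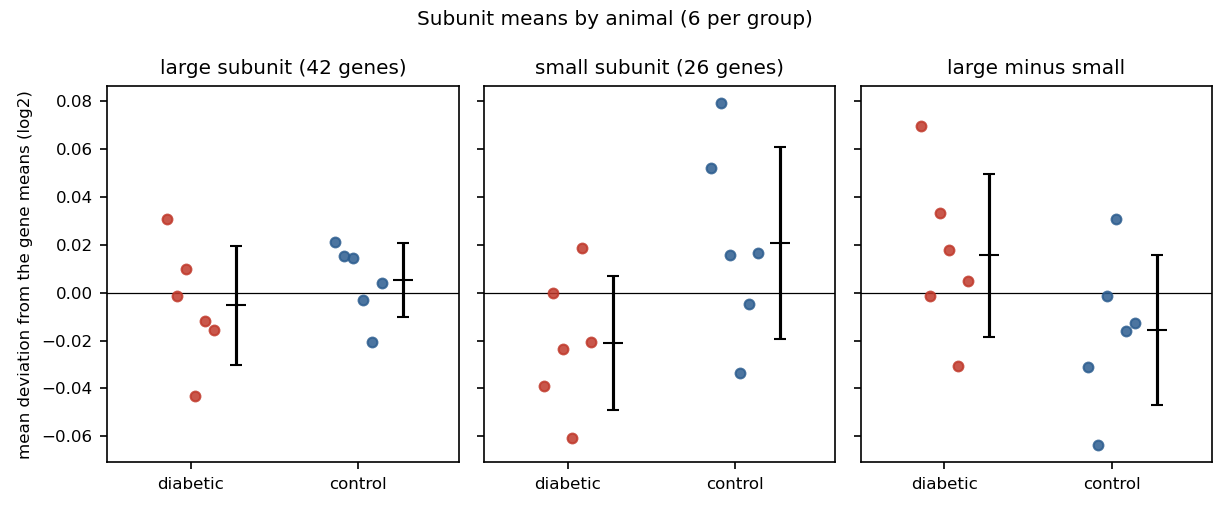
Mean deviation (log2) of the 42 large subunit genes, of the 26 small subunit genes and of large minus small, with a point for each of 6 diabetic (left) and 6 control (right) animals and the mean ± SD beside them. The groups overlap in all 3 panels, and large minus small averages 0.016 in diabetic and -0.016 in control retinas.

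**Figure D3:**
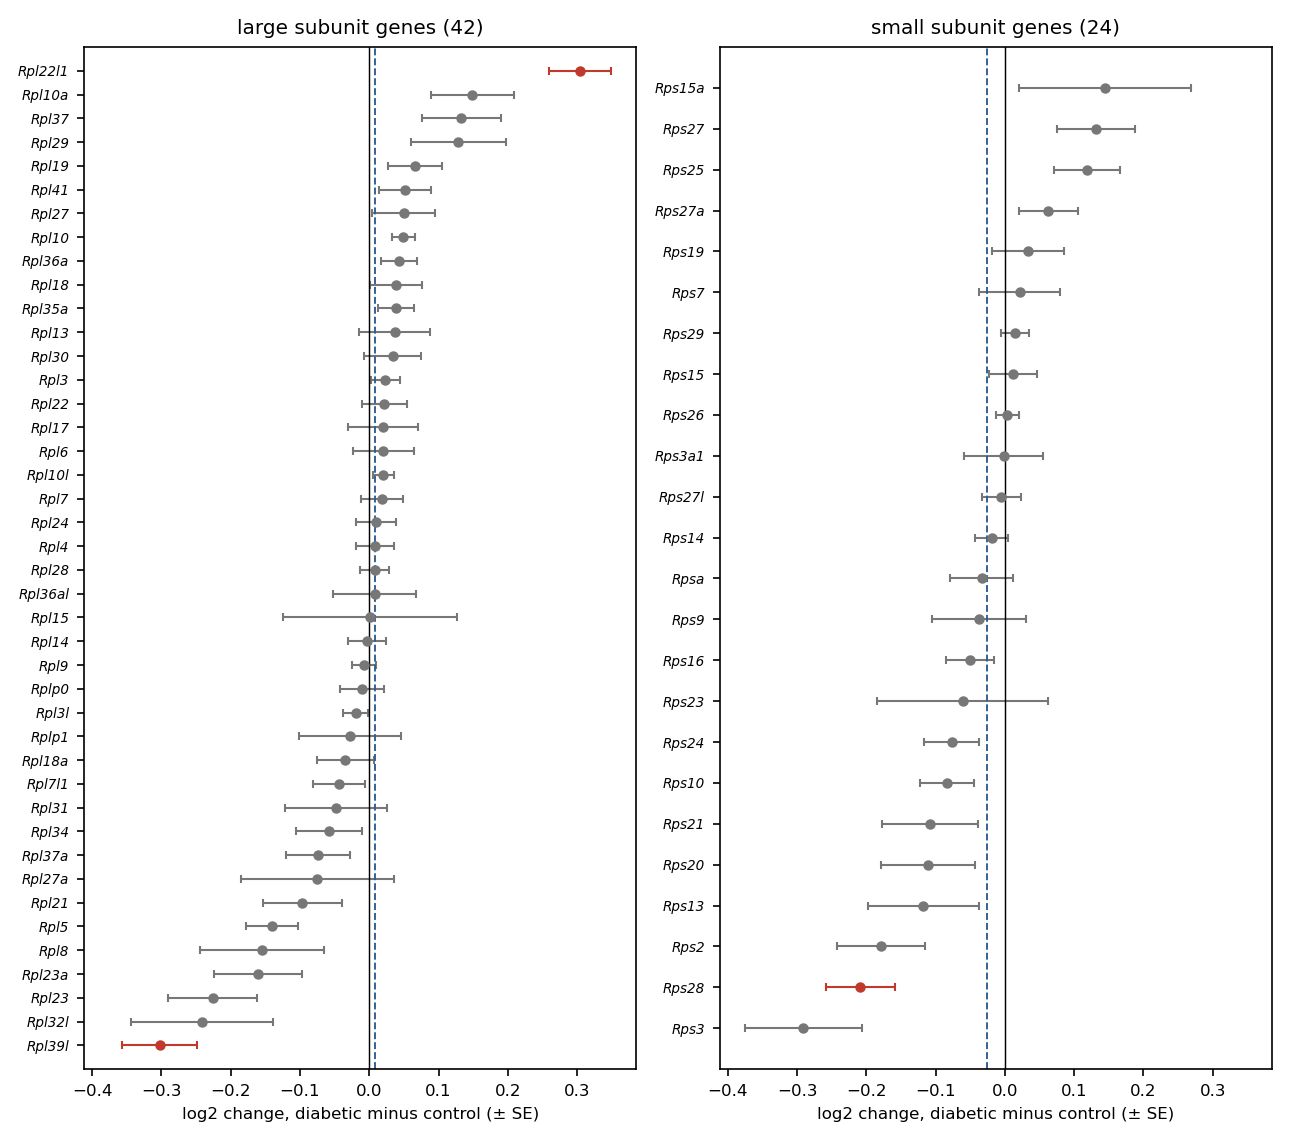
Log2 change, diabetic minus control, with its SE for each of the 42 large subunit genes (left) and 24 of the 26 small subunit genes (right), ordered by change. Red marks an adjusted p under 0.05, and the dashed lines mark the medians over all 42 and 26 genes, 0.0084 and -0.026.

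In the small subunit, the 7 genes of the decoding centre and the mRNA channel had 5 values below 0 and 2 above, where 12740 of all 24570 genes were below 0, and a median of -0.061. Rps28 was the 1 gene of the 7 past the test (14.3%, against 3.24% of all genes). Rps3, which lines the entry of the mRNA channel, had values of 7.69, 7.84 and 8.00 in diabetic retinas, against 7.89, 8.15 and 8.43 in control retinas. The groups overlapped, with control animal 5 lowest among the controls. The difference of -0.29 ± 0.08 did not pass (adjusted p = 0.0815). With 1 array left out it passed in 1 of 12 runs, without control animal 5 (adjusted p = 0.0408). In the other 11 runs it did not pass (adjusted p up to 0.146). Rps2, its neighbour at the channel entry, differed by -0.18 ± 0.06 (adjusted p = 0.140). Rps9 (-0.04 ± 0.07), Rps15 (0.01 ± 0.03), Rps23 (-0.06 ± 0.12) and Rps26 (0.0034 ± 0.02) did not pass either. The SE of Rps23 was among the widest of the genes, and that of Rps26, at a level of 5.18 close to the floor of the table, among the narrowest.

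Among other small subunit genes, Rps15a, a gene of the tract described above, differed by 0.14 ± 0.12 (adjusted p = 0.550), with ranges of 6.07 to 6.77 in diabetic and 6.06 to 6.65 in control retinas. Rpsa, whose protein is also known as a laminin receptor precursor, differed by -0.03 ± 0.05 (adjusted p = 0.725). Rps27a, made as a fusion with ubiquitin, differed by 0.06 ± 0.04 (adjusted p = 0.433).

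In the large subunit, Rpl5, which with Rpl11 carries the 5S rRNA and can bind the p53 regulator Mdm2, had values of 6.15, 6.22 and 6.37 in diabetic retinas, against 6.31, 6.39 and 6.45 in control retinas. All 6 diabetic values were below the control mean, though the ranges overlapped. The difference of -0.14 ± 0.04 missed the threshold (adjusted p = 0.0678). With 1 array left out it passed in 1 of 12 runs, without diabetic animal 3 (adjusted p = 0.0394). In the other 11 runs it did not pass (adjusted p up to 0.127). The stalk recruits the elongation factors, and 0 of its 2 measured genes passed the limma test, also at an unadjusted p of 0.05. Of all genes, 3.24% and 21.0% passed at these thresholds. Rplp1 had 10.77, 10.87 and 11.07 in diabetic retinas, against 10.76, 10.85 and 11.14 in control retinas, and differed by -0.03 ± 0.07 (adjusted p = 0.872). Rplp0 differed by -0.01 ± 0.03 (adjusted p = 0.892).

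Around the exit tunnel, 0 of 6 measured genes passed the limma test, against 3.24% of all genes. Rpl23a (-0.16 ± 0.06, adjusted p = 0.177) was the 1 gene at an unadjusted p of 0.05 (16.7%, against 21.0% of all genes). With trend and robust settings, which take the spread to follow the level, Rpl23a did not pass either. The 6 genes had a median change of 0.015, with 4 values above 0 and 2 below. Rpl4, whose protein reaches into the tunnel wall, had values of 12.03, 12.09 and 12.15 in diabetic retinas, against 12.02, 12.07 and 12.15 in control retinas. The ranges of Rpl4 nearly coincided, and its difference of 0.0088 ± 0.03 had a 95% interval from -0.05 to 0.07. Rpl19 (0.07 ± 0.04), Rpl17 (0.02 ± 0.05) and Rpl31 (-0.05 ± 0.07) did not pass.

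The largest values above 0 among the genes that did not pass were those of Rpl10a (0.15 ± 0.06, adjusted p = 0.183), Rps15a, and Rpl37 (0.13 ± 0.06, adjusted p = 0.207). Rpl10a had 6.36, 6.41 and 6.66 in diabetic retinas, against 6.17, 6.32 and 6.44 in control retinas, with overlap. Rpl37 ranged from 5.60 to 5.89 in diabetic retinas and from 5.42 to 5.66 in control retinas, and its highest value was that of diabetic animal 3.

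Of the 8 paralog genes measured, Rpl22l1 rose, Rpl39l fell and 6 did not pass, so that 25% passed, against 3.24% of all genes. Rpl3l, a form of skeletal muscle and heart, differed by -0.02 ± 0.02 at a level of 5.38, and Rpl3, its common form near the peptidyl transferase centre, by 0.02 ± 0.02. Rpl10l, a form of testis, differed by 0.02 ± 0.02 at a level of 5.23, and Rpl10, which joins the large subunit late in its maturation, by 0.05 ± 0.02 at a level of 5.14. All 4 had means below the array median. Rpl36al and Rpl36a differed by 0.0076 ± 0.06 and 0.04 ± 0.03, and Rpl7l1 and Rpl7 by -0.04 ± 0.04 and 0.02 ± 0.03. Rps27l, which p53 is known to induce, differed by -0.0049 ± 0.03, and Rps27 by 0.13 ± 0.06 (adjusted p = 0.208). Rpl32l differed by -0.24 ± 0.10 (adjusted p = 0.202). Its values ran from 6.55 to 7.00 in diabetic retinas and from 6.77 to 7.30 in control retinas, and Rpl32 and Rpl39 were not analysed here. Signs of Rpl36al and Rps27l turned under other settings given in the closing section.

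The level at which a gene was read bears on how much a missing call says. Of the 68 genes, 8 had a mean level of at least 7.23, the 75th percentile of all genes, and they were picked out after their values were seen. Rpl4, Rplp1, Rps3 and Rpl15 were among them, and 0 of the 8 passed the limma test, against 5.66% of all genes at this level. Of these 8, 1 (Rps3) had an unadjusted p under 0.05, while 28.4% of all genes at this level did. With trend and robust settings Rps3 passed (adjusted p = 0.0491). Rpl8 differed by -0.16 ± 0.09 and Rps21 by -0.11 ± 0.07. Rpl15 was the most variable of the 68 genes within groups (pooled SD 0.24), with values from 7.02 to 7.73 in diabetic and from 7.07 to 7.50 in control retinas and a difference of 0.0015 ± 0.13. For 47 of the 65 genes that did not pass, the 95% interval of the change lay within 0.25 on both sides of 0. Of those 47, 31 had a mean below the array median.

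**Figure D4:**
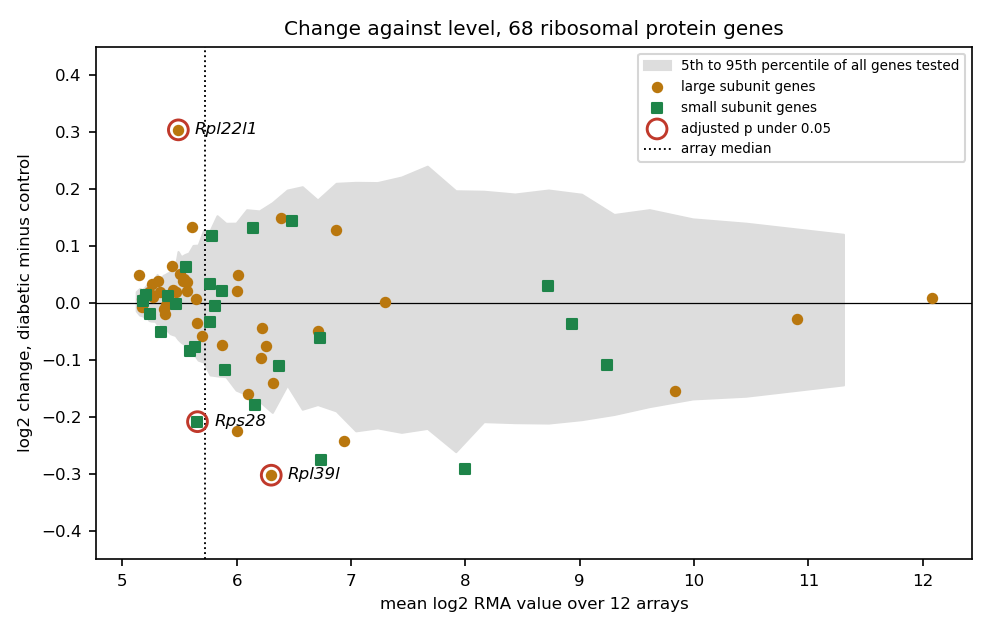
Log2 change, diabetic minus control, against the mean log2 RMA value over 12 arrays for 68 ribosomal protein genes, over the 5th to 95th percentile of all genes tested (grey). The dotted line is the array median, below which 34 of the 68 genes lie, and rings mark Rpl22l1, Rpl39l and Rps28.

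The 9 genes with a pyrimidine tract at an annotated start had a median change of 0.0015, with 5 values above 0 and 4 below. Of them 0 passed the limma test, where 3.24% of all genes did. At that background 9 genes are too few for 0 calls to set them apart. An unadjusted p under 0.05 was found for 2 of the 9, where 21.0% of all genes had one. The other 43 genes with a start region had a median of -0.0018, with 11 at an unadjusted p under 0.05, and held the 3 calls. Among these calls, Rpl22l1 has a pyrimidine run from the base after its annotated start. Ribosomal protein genes are short, with a median span of 3152 bases against 15491 over all genes in RefSeq, and 37 of the 68 were in the shortest 20% of all genes. Among all genes at or above the 75th percentile of level, those in the shortest 20% had a median change of -0.041, and the part of span in the values of these genes was not tested.

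Other genes of the ribosome and of its translation were read from lists of 60 genes, of which 58 were measured, and 3 rose and 0 fell past the limma test (5.17%, against 3.24% of all genes). At an unadjusted p of 0.05, 11 were higher and 6 lower (29.3%, against 21.0% of all genes). Fau, which encodes Rps30 fused to a ubiquitin-like protein, differed by 0.0044 ± 0.04, a sign that turned under settings given in the closing section. Rack1, a scaffold on the small subunit, differed by -0.10 ± 0.04 (adjusted p = 0.211). Of 14 other mRNAs known for a pyrimidine tract, 2 rose and 0 fell (14.3%, against 3.24% of all genes), and their median was -0.034. At an unadjusted p of 0.05, 3 of the 14 were higher and 3 lower (42.9%, against 21.0% of all genes). Eef1a1, which brings aminoacyl-tRNAs to the ribosome, had values of 6.42, 6.73 and 6.99 in diabetic retinas, against 5.94, 6.11 and 6.48 in control retinas, with overlap between the groups. Eef1a1 rose by 0.56 ± 0.10 (adjusted p = 0.0196). Its mean level was 6.44, against 12.07 for Eef2 of the same list. How much of the Eef1a1 RNA this row reads, and whether other copies bind its probes, was not tested. Eif4b, a cofactor of the helicase that prepares the mRNA, had 10.24, 10.29 and 10.44 in diabetic retinas, against 10.09, 10.14 and 10.24 in control retinas, and rose by 0.16 ± 0.03 (adjusted p = 0.0318).

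Of 16 regulators of their translation, 1 rose and 0 fell (6.25%, against 3.24% of all genes). At an unadjusted p of 0.05, 3 of the 16 were higher and 2 lower (31.25%, against 21.0% of all genes). Of 26 chaperones and late assembly factors, 0 passed the limma test and 5 were higher and 0 lower at an unadjusted p of 0.05 (19.2%, against 21.0% of all genes), with a median of 0.032. Mtor had 9.26, 9.32 and 9.39 in diabetic retinas, against 9.07, 9.16 and 9.29 in control retinas, and rose by 0.15 ± 0.03 (adjusted p = 0.0348). Larp1 differed by 0.08 ± 0.04 (adjusted p = 0.319). Eif4ebp1, which encodes a repressor of the cap-binding protein, differed by 0.03 ± 0.03 (adjusted p = 0.541). The call of Mtor was lost without diabetic animals 3 to 6 and without each control animal except 5 (adjusted p from 0.0525 to 0.0687). The call of Eif4b was lost without diabetic animals 3 to 5 and without control animals 2, 3, 4 and 6 (adjusted p from 0.0507 to 0.0658). With the crystallin mean as a covariate Mtor changed by 0.14 ± 0.03 and Eif4b by 0.16 ± 0.04, close to the changes without it. Both calls were lost there (adjusted p = 0.0625 and 0.0575). With trend and robust settings the call of Mtor was lost (adjusted p = 0.0726). Eef1a1 passed without any 1 array and with the crystallin covariate (adjusted p = 0.0328).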

How the data were processed

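The deposited table holds log2 values made by the authors with RMA, per the submitters' processing notes, which give no version. All 12 columns share 1 distribution. Of 24973 rows, 24015 were named by the platform annotation and 559 more through RefSeq gene numbers, and 399 had no name. Each of the 24570 genes was tested with limma 3.58.1 (R 4.3.3, lmFit and eBayes, two-sided), diabetic minus control, p-values adjusted by Benjamini-Hochberg across the whole table and called at 0.05. The fit was tested on simulated data.

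Of 70 names matching the rule, 2 that RefSeq annotates as pseudogenes were left out, and 5 of the 68 genes were named through RefSeq only. The members and lists were chosen with earlier results of these data known. The rule for named genes took every gene past the threshold, the 3 largest changes each way among the others, the paralogs with their common forms, and a short list of well-known members. Genes of the functional groups and the 8 of highest level were named beyond it. Some genes are not reported here. Start regions came from RefSeq (GRCm38.p6). Alternatives changed the moderation, array weights, level filter, threshold, naming, covariate and arrays used. Precision is limited by having 12 arrays, and the animal numbers in the sample descriptions, unlike the replicate numbers, run in separate ranges in the 2 groups. Whether the ranges mark cohorts is not stated, and if they do, cohort and group cannot be told apart.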

Additional observations from a re-analysis of the deposited data

Results flagged for a closer look

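In 5 of 62 groups of 6 animals, the highest or lowest value stood away from its nearest neighbour by more of the group's range than Dixon's 95% critical value for 6 samples, where chance gives about 1 in 20 groups. Rpl22l1 was high in diabetic animal 1 (5.85, the next at 5.66, a gap of 0.638 of the range). Rpl37 was high in diabetic animal 3 (gap 0.801), and so was Eif4ebp1 (gap 0.783). Rplp1 (gap 0.658) and Rps27a (gap 0.690) were high in diabetic animal 2.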

How the results depend on the processing

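The count of 3 ribosomal protein genes past the test was 6 with trend and robust settings. These added Rps3 (adjusted p = 0.0491), Rpl10 (0.0465) and, named after its values were seen, Rpl23 (0.0430). The count was 0 at an adjusted threshold of 0.01 and 6 at 0.1, and 2 to 4 with 1 array left out. The 3 other translation genes became 0 at 0.01, 5 at 0.1, 1 with the crystallin mean as a covariate, and 1 to 7 with 1 array left out. The share of all genes called in each alternative is not given here. These counts therefore do not show whether the change is particular to these genes. Same-numbered animals did not deviate together (correlations from -0.16 to 0.17, 1 of 6 over 0.1). The labels state no pairing, and these correlations cannot exclude a shared factor for single genes. With the number as a replicate block, the counts were 4 and 1. From the median level upward, the large subunit median was -0.061 and the large minus small difference -0.022, on fewer genes. The large subunit median also turned below 0 from the 25th percentile of level upward (-0.0011) and with array weights (-0.00030), and the mean in its place was -0.011. Signs turned with array weights for Rpl36al (-0.0014), Rps27l (0.0076) and Fau (-0.0094), and with the crystallin covariate for Rps27l (0.0028) and Fau (-0.010). Without 1 array, changes ran from -0.036 to 0.042 for Rpl36al, -0.019 to 0.013 for Rps27l, -0.034 to 0.013 for Rplp0, -0.064 to 0.019 for Rplp1 and -0.021 to 0.022 for Fau. The cause was not tested. The small subunit median ran from -0.035 to -0.010 in the alternatives, and the mean in its place was -0.042. Signal near background limits the 34 genes below the array median.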

Other observations

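The table also holds 10 rows whose symbols mark processed copies of ribosomal protein genes. Of these, 0 passed the limma test, while 5 were higher and 1 lower at an unadjusted p of 0.05 (60%, against 21.0% of all genes). Rps12-ps24 differed by 0.34 ± 0.08 (adjusted p = 0.0537). RNA of near-identical copies can bind the same probes, and which copy each row measures was not tested. The row was named after its values were seen.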
